A study of Mus musculus with 6 samples.

Results

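The white and brown fat genes described here are 10 genes of adipocytes: Ucp1, Cidea, Cidec, Fabp4, Adipoq, Cfd, Plin1, Lep, Retn and Pck1. They were listed by name as known genes of fat and matched to the array's symbols ignoring case. All 10 were found, with 1 probe each, among 17742 named genes. The samples were RNA of female BALB/c mice, each carried by a 1-colour array (Cy5), 6 in all. Each of 3 labelled tissues, brain, ovary and uterus, was represented by 1 array of SHT-treated and 1 array of untreated (mock) mice. SHT (Sheng-Hua-Tang) is a herbal decoction, which the treated mice took by mouth at 200 mg/kg on 7 days in a row. The labels do not give the age of the mice, whether RNA was pooled, whether the tissues of a treatment came from the same mice, or whether fat was trimmed from the tissues. With 1 array per group, no difference within a labelled tissue has a replicate check.

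White adipocytes store triglyceride in a single large droplet and secrete hormones (adipokines), while brown adipocytes hold many small droplets and burn fat for heat in mitochondria that carry the uncoupling protein of Ucp1. The perigonadal depot around the ovary and uterine horns of the mouse is white fat, and the brain parenchyma holds no adipocytes. Fat genes in a tissue sample can therefore serve as a measure of fat dissected with it, although several of them are also used by other cells, as given beside each gene.

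The defining markers of the tissues went against 4 of the 6 labels. All 7 neuron markers present on the array read above background on the arrays labelled SHT ovary and mock brain, while 0, 5, 4 and 1 of 7 did on the arrays labelled SHT brain, SHT uterus, mock ovary and mock uterus. All 3 theca and luteal markers did so on the arrays labelled SHT brain and mock uterus, and 1 of 3 on each of the others. All 10 genes of stratified epithelium did so on the arrays labelled SHT uterus and mock ovary, against 2 to 6 on the others. The myelin and glia list divided the arrays in the same way (7 of 7 on the arrays labelled SHT ovary and mock brain, 3 to 5 elsewhere). So did the list of granulosa cells and oocytes (9 of 10 on those labelled SHT brain and mock uterus, 2 elsewhere). Of 10 uterus and oviduct genes, 4 to 8 were above background on each array. Among them, Hoxa10 read 6642 under SHT uterus and 2805 under mock ovary, then 1163 under SHT brain and 324 under mock uterus. It read 29.6 under SHT ovary and 26.7 under mock brain. Ovgp1 read 25536 under SHT brain and 31822 under mock uterus, and at most 146 elsewhere. Ltf, Pgr and Msx1, named as the other case, were above background on all 6. The vesicle fusion gene Snap25 had intensities of 209.8 under the label SHT brain and 58204 under mock brain. Hsd3b1, which makes progesterone, had 40566 under SHT brain and 51780.0 under mock uterus. The keratin gene Krt5 had 29948 under SHT uterus and 36716 under mock ovary. Arrays are named by their labels throughout, no array was moved, and no direction is assigned to a tissue or to SHT. Every labelled pair holds at least 1 of the 4 arrays, so no pair could be given without them. Background was read from 529 olfactory receptor genes, which are known chiefly from the nose. The 95th percentile of their intensities was 275, 403 and 318 on the arrays labelled SHT brain, SHT ovary and SHT uterus, and 541, 312 and 295 on those labelled mock brain, mock ovary and mock uterus. A value under it is called inside the background spread.

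Promoters of 8 of the 10 genes were read from RefSeq (mouse assembly GRCm38.p6) as the 250 bases before the start site, and 4 are shown because they belong to genes with different patterns over the arrays. Ucp1 (chr8:83290098-83290347, plus strand) was bright on a pair of arrays, Adipoq (chr16:23146286-23146535, plus strand) and Pck1 (chr2:173152823-173153072, plus strand) on 4, and Lep (chr6:29059971-29060220, plus strand) on 1. Capitals mark a match, on either strand, to any of 6 motifs, none of which overlapped another here. The forms of the core promoter box searched were TATAAA, which none of the 9 promoters read held and 12.4% of all promoters hold, and the variant TATATA. The others were CCAAT, known from many promoters, the palindrome TTGCGCAA, which C/EBP regulators of adipocyte genes bind, the cyclic AMP response element form TACGTCA, and AGGTCA, the core that many nuclear receptors recognise.
Ucp1: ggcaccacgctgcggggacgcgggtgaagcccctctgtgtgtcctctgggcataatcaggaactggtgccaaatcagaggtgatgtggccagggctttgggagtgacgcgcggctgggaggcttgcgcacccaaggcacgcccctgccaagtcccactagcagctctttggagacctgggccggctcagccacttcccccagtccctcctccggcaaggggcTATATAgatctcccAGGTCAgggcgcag
Adipoq: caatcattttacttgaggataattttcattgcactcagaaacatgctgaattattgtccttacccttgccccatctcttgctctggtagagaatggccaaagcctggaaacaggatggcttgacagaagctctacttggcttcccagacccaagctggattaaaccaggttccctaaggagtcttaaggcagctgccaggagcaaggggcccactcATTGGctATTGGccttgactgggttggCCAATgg
Pck1: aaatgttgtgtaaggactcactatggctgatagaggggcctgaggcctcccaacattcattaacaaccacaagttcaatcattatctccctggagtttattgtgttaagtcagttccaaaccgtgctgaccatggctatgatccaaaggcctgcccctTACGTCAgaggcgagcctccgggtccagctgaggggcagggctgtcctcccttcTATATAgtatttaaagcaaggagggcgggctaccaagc
Lep: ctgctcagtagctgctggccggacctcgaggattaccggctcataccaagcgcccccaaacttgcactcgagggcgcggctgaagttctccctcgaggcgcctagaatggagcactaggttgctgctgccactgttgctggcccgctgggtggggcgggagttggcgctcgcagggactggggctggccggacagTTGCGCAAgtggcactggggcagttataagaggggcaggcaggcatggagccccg
TATATA was found 28 bases before the start site of Ucp1 and 38 before that of Pck1, and occurs in 5.25% of the 32851 mouse promoters of the same length. AGGTCA, present in the Ucp1 promoter, occurs in 14.0% of them. TACGTCA lay 92 bases before the start site of Pck1, whose response to cyclic AMP in fasting is well known, and occurs in 1.08%. TTGCGCAA lay 55 bases before the start site of Lep and occurs in 0.164%. The Adipoq promoter held CCAAT 3 times, counting both strands, and 33.8% of promoters hold it. The 5 promoters read for Cidec (2 of them), Plin1, Retn and Cfd held none of these letters, which says nothing about the factors that bind there.

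Of the 10 fat genes, 7 read above the background spread under the label SHT brain, and 8 under each of the labels SHT uterus, mock ovary and mock uterus. On the arrays labelled SHT ovary and mock brain, the arrays with all neuron markers, 1 did. Over all named genes, 54.4%, 48.0% and 55.2% were above the spread on the arrays labelled SHT brain, SHT ovary and SHT uterus, and 44.2%, 51.1% and 55.3% on those labelled mock brain, mock ovary and mock uterus. The summed intensity of the 10 genes was 50147, 1226 and 55703 on the arrays labelled SHT brain, SHT ovary and SHT uterus, and 1635, 39310 and 80061 on those labelled mock brain, mock ovary and mock uterus. In bulk tissue, fewer adipocytes and less RNA per adipocyte cannot be told apart.

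Adipoq encodes adiponectin, the adipokine most specific to adipocytes. It read 8371, 49.2 and 5735 on the arrays labelled SHT brain, SHT ovary and SHT uterus, and 89.0, 3070.4 and 18117 on those labelled mock brain, mock ovary and mock uterus. The array labelled mock uterus was the brightest, and the arrays labelled SHT ovary and mock brain lay inside the background spread. Cfd encodes adipsin, a complement protease secreted by fat. Its intensities were 21893, 26.1 and 18850.0 on the arrays labelled SHT brain, SHT ovary and SHT uterus, against 178, 12649.8 and 32246 on those labelled mock brain, mock ovary and mock uterus. The same 4 arrays were bright, and on the array labelled mock uterus Cfd stood at the 99.7th percentile of all named genes.

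Lep, which encodes the satiety hormone leptin, read 172, 49.9 and 122 on the arrays labelled SHT brain, SHT ovary and SHT uterus, and 84.9, 66.4 and 675 on those labelled mock brain, mock ovary and mock uterus. It passed the background spread on the array labelled mock uterus, where Adipoq, Cfd, Cidec and Plin1 were also at their brightest, and on no other. Retn encodes resistin, an adipokine of white fat in mice. Its intensities of 80.8, 85.6 and 66.4 on the arrays labelled SHT brain, SHT ovary and SHT uterus, and 102, 47.1 and 112 on those labelled mock brain, mock ovary and mock uterus, lay inside the background spread on all 6 arrays. Whether this probe detects its transcript could not be judged from these arrays.

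The lipid droplet genes Plin1 and Cidec were brightest on the array labelled mock uterus. Plin1 encodes perilipin, which coats the droplet and gates its breakdown, and is also used by steroid-producing cells. It read 2654, 326 and 1377 on the arrays labelled SHT brain, SHT ovary and SHT uterus, and 371, 1045 and 5356 on those labelled mock brain, mock ovary and mock uterus. Cidec, which fuses droplets into the single droplet of white fat, read 2656, 13.9 and 1633 on the arrays labelled SHT brain, SHT ovary and SHT uterus, against 22.7, 659 and 5022 on those labelled mock brain, mock ovary and mock uterus. Both had the order mock uterus, SHT brain, SHT uterus and mock ovary among the 4 bright arrays, which Adipoq and Cfd also had. With 1 array per group, none of the steps in that order has a spread to be set against.

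Fabp4, the fatty acid carrier of adipocytes, is also made by capillary endothelium and macrophages. It read 11168, 19.9 and 13816 on the arrays labelled SHT brain, SHT ovary and SHT uterus, and 118, 14217 and 15615 on those labelled mock brain, mock ovary and mock uterus. Its 4 bright arrays lay closer together than those of the other genes above background there. Pck1, the enzyme of gluconeogenesis in liver and kidney and of glycerol synthesis in fat, read 2164, 55.4 and 3713 on the arrays labelled SHT brain, SHT ovary and SHT uterus, and 61.5, 2376 and 1628 on those labelled mock brain, mock ovary and mock uterus. Unlike the lipid droplet genes it was brightest on the array labelled SHT uterus. Of 7 liver and kidney markers, 1 was above background on each array, Pcx, an enzyme that fat also uses. Alb, the most abundant liver transcript, read at most 203 on any array.

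Ucp1 and Cidea, the brown fat genes of the set, had another order, led as for Pck1 by the arrays labelled SHT uterus and mock ovary. Ucp1 read 15.3, 19.3 and 6623 on the arrays labelled SHT brain, SHT ovary and SHT uterus, and 50.6, 3459.9 and 19.6 on those labelled mock brain, mock ovary and mock uterus. It was thus above background on the arrays labelled SHT uterus and mock ovary, the arrays with all genes of stratified epithelium, and inside the background spread on the other 4, among them the array labelled mock uterus with the brightest Adipoq. Cidea, a droplet protein of brown fat that white fat and sebaceous glands can also make, read 972, 580.3 and 3768 on the arrays labelled SHT brain, SHT ovary and SHT uterus, against 559, 1719 and 1270.2 on those labelled mock brain, mock ovary and mock uterus. It was brightest on the same pair of arrays as Ucp1 and above background on all 6, though on the array labelled mock brain it read 1.03 times the limit.

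**Figure D1:**
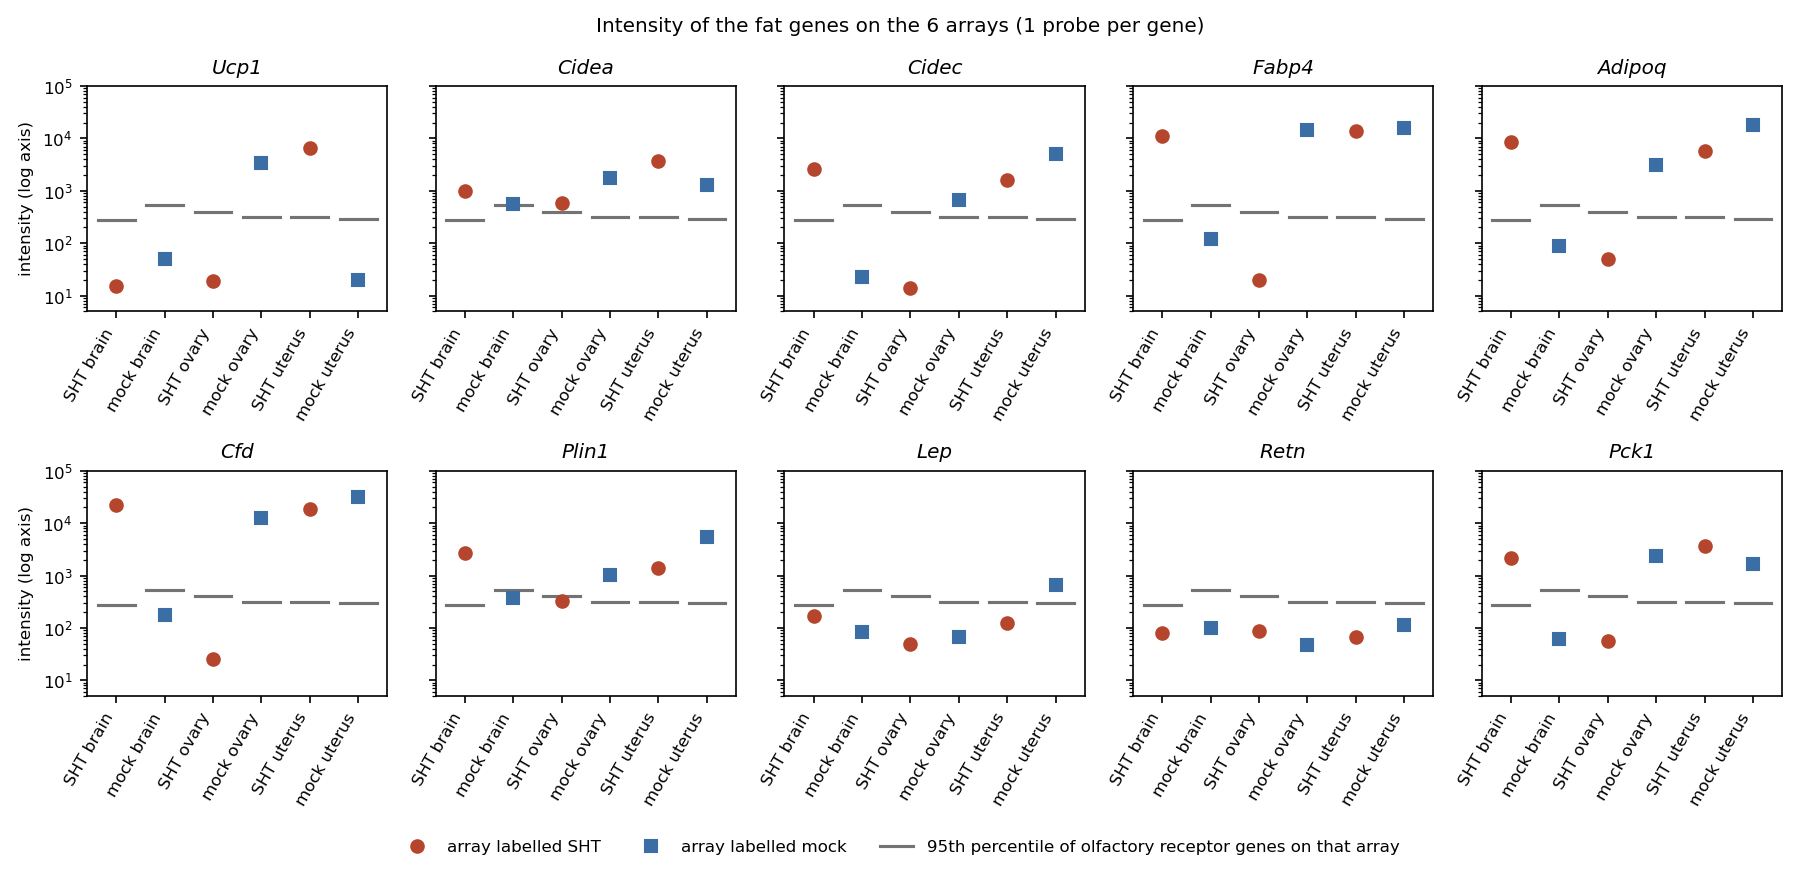
Intensity of each fat gene (log axis) on the 6 arrays, with circles for arrays labelled SHT, squares for arrays labelled mock and a grey bar at the upper edge of the background spread of that array (95th percentile, olfactory receptors). Ucp1 stands above the bar at 6623 under the label SHT uterus and 3459.9 under mock ovary, Adipoq on 4 arrays, and Retn on none.

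The question of the design is which genes differ after SHT in each tissue. In the pair labelled brain, fat genes were higher on the SHT array than on the mock array, which carry all theca and luteal and all neuron markers in that order. Of the 10 genes, 7 had a pair mean above the level floor (the median pair mean of all probes). A 2-fold difference or more was found for 6 of these, all higher, beside 45.9% of all genes above that floor (22.0% higher and 24.0% lower). Cidec, Fabp4, Adipoq, Cfd and Pck1 read under that floor (214) on the mock array and passed it only through the SHT array. The direction of these genes was thus fixed by the filter, which was the same for all genes. Counts and shares past 2-fold were taken on the intensities as deposited. Folds and differences of single genes, and medians, are instead relative to the median gene, which differed by -0.12, 0.13 and -0.02 in the pairs labelled brain, ovary and uterus. On that relative scale the counts of fat genes were the same in all 3 pairs, while over all genes of the pair labelled brain 24.7% were higher and 21.7% lower. Where the dimmer array was inside the background spread, its 95th percentile took the place of its value and the fold is a lower bound. With such genes at their bound, and genes inside the spread on both arrays at 0, the median difference of the 10 genes was 2.26 on the log2 scale, beside 0 over all genes above the floor. Cfd was at least 43.9-fold higher, Fabp4 at least 22.4-fold, Adipoq at least 16.8-fold, Cidec and Plin1 each at least 5.32-fold, and Pck1 at least 4.34-fold. Cidea differed by 1.89-fold, and Ucp1, Lep and Retn were inside the background spread on both arrays.

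The pair labelled ovary ran the other way, between an SHT array with all neuron markers and a mock array with all genes of stratified epithelium. Of the 10 genes, 7 were above the level floor, with 0 higher and 7 lower by 2-fold or more, against 46.7% of all genes past the floor (25.4% up and 21.2% down). Ucp1, Fabp4, Adipoq, Cfd and Pck1 read under that floor (203) on the SHT array. They passed it only through the mock array, which fixed their direction. Taking genes at their bound, the median difference of the 10 genes was -2.19, beside 0 over all genes above the floor. Fabp4 was at least 38.6-fold lower on the SHT array, Cfd at least 34.3-fold, Ucp1 at least 9.39-fold, Adipoq at least 8.33-fold, Pck1 at least 6.45-fold and Plin1 at least 2.83-fold. Cidea, above background on both arrays, was 3.23-fold lower. Cidec was at least 1.79-fold lower, with its pair mean under the level floor.

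In the pair labelled uterus the fat genes divided. Ucp1, Cidea and Pck1 were higher and Cidec, Adipoq, Plin1 and Lep lower by 2-fold or more on the SHT array, which carries all genes of stratified epithelium, than on the mock array, which carries all theca and luteal markers. That is 3 higher and 4 lower of 9 genes above the level floor, against 21.4% of all genes past the floor (12.9% up and 8.49% down). Ucp1 read under that floor (218) on the mock array and Lep on the SHT array, so the filter fixed their direction. Ucp1 was at least 22.7-fold higher and Pck1 2.31-fold, and Cidea was higher by 1.58 on the log2 scale. Plin1 was 3.85-fold lower, Adipoq 3.12-fold, Cidec 3.04-fold and Lep at least 2.10-fold. Fabp4 and Cfd differed by less than 2-fold, at 1.12-fold and 1.69-fold lower, and Retn was inside the background spread on both arrays. With genes at their bound, the median difference of the 10 genes was -0.46, beside 0.02 over all genes above the floor. Over the 3 labelled pairs, 8 of the 8 fat genes above the level floor in at least 2 pairs passed 2-fold upward in 1 pair and downward in another, as did 39.9% of all genes above the floor in at least 2 pairs. Apart from Cidea and Plin1, each of these fat genes passed the floor in at least 1 pair only through its brighter array.

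**Figure D2:**
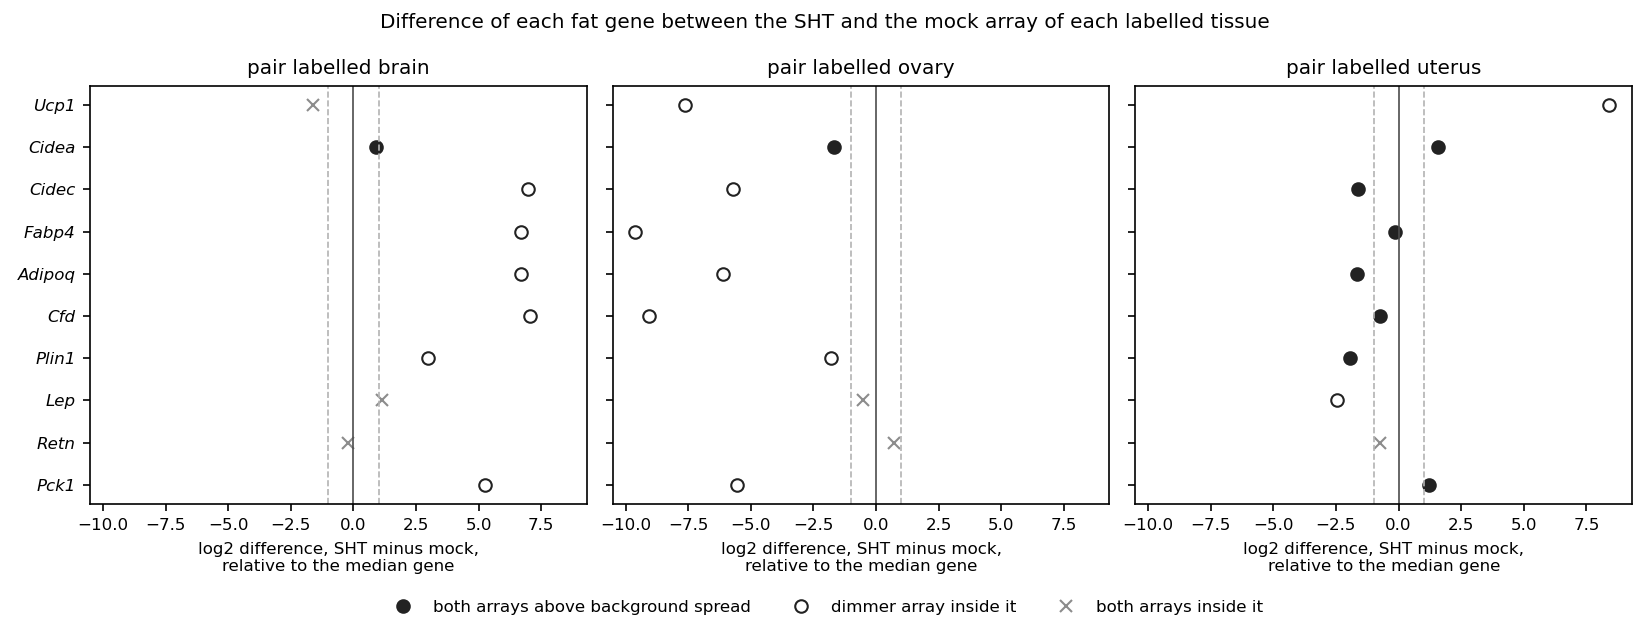
Log2 difference of each fat gene, SHT minus mock, relative to the median gene, in the 3 labelled pairs, with dashed lines at 2-fold. Filled circles have both arrays above the background spread, open circles the dimmer array inside it and crosses both inside it. The genes lie mostly right of 0 in the pair labelled brain, left of 0 in the pair labelled ovary and on both sides in the pair labelled uterus. Open circles and crosses rest on intensities inside the background spread, so their distance from 0 is not a measure: in the pair labelled uterus Ucp1 stands for 22.7-fold or more on the SHT array and Lep for 2.10-fold or more on the mock array.

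The average SHT effect over the 3 labelled tissues was tested with limma, with labelled tissue as a block. None of 10763 genes passed (0% called at an adjusted p under 0.05, and 4 genes, or 0.0372%, at an unadjusted p under 0.05). The 7 fat genes above the level floor of this fit had average log2 differences between -1.03 for Fabp4 (SE 3.33) and 0.30 for Pck1 (SE 2.24), each with a limma adjusted p of 1. Apart from Cidea, these averages include intensities inside the background spread. Ucp1, Lep and Retn were under that floor. The spread in this fit is the one between labelled tissues, whose directions opposed each other, and the p-values say nothing of the spread between mice. With directions so opposed the fit could hardly call a gene, and its lack of calls does not show that SHT had no effect.

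The arrays most alike over all 26423 probes never shared a tissue label, and the fat genes can be set side by side in these pairs without a fold between labelled groups. Between the arrays labelled mock uterus and SHT brain (r = 0.981, Pearson on log2 intensity, across probes, which are not replicates), 7 fat genes were above background on both. Their differences, mock uterus minus SHT brain and relative to the median gene, ran from -0.66 for Pck1 to 0.87 for Adipoq. Between the arrays labelled SHT uterus and mock ovary (r = 0.972), 8 genes were above background on both, and the differences, SHT uterus minus mock ovary, ran from -0.38 for Fabp4 to 0.97 for Cidec. Across those pairs the range was wider: SHT uterus minus mock uterus ran from -1.94 for Plin1 to 1.58 for Cidea over the 7 genes above background on both. The closest of all were the mock brain array and the SHT ovary array (r = 0.996), and Cidea, the single fat gene above background on both, differed by -0.15, mock brain minus SHT ovary.

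Other genes of white fat followed the set in part. Of 28 listed, 27 were on the array, and their summed intensity was 82458, 45748 and 110104 on the arrays labelled SHT brain, SHT ovary and SHT uterus, and 47169, 74944 and 143652 on those labelled mock brain, mock ovary and mock uterus. Counts past 2-fold, as deposited and above the level floor, are given with the shares over all genes past that floor. The pair labelled brain had 6 of 21 higher and 5 lower, near the shares of 22.0% and 24.0%. The pair labelled ovary had 6 of 23 higher and 8 lower, beside 25.4% and 21.2%. In the pair labelled uterus 0 of 22 were higher and 4 lower, beside 12.9% and 8.49%. Relative to the median gene, 9 were higher and 4 lower in the pair labelled brain, 4 higher and 9 lower in the pair labelled ovary, and 1 higher and 4 lower in the pair labelled uterus. Over all genes on that scale, 24.7% were higher and 21.7% lower, 23.0% and 23.4%, and 13.1% and 8.26% in the same order. With genes at their bound, the median difference of this list and of the brown fat list was 0 in each pair. Car3, a carbonic anhydrase abundant in fat, followed Adipoq, with 17776, 123 and 19920.1 on the arrays labelled SHT brain, SHT ovary and SHT uterus, and 215, 9778 and 29001 on those labelled mock brain, mock ovary and mock uterus. Agpat2, an enzyme of triglyceride synthesis, was brightest on the array labelled mock ovary (7141) and read 2392, 172 and 2542 on the arrays labelled SHT brain, SHT ovary and SHT uterus, and 189 and 3072 on those labelled mock brain and mock uterus. Nnat and the amino acid transporter gene Slc7a10, which brain also uses, were brightest on the arrays with all neuron markers, Nnat at 3441 on the array labelled SHT ovary and 4881 on the array labelled mock brain, and Slc7a10 at 1971 and 1912 there. The 4 lower genes of the pair labelled uterus, given because they are so few, were Plin4, a droplet coat protein (4.32-fold), Pnpla3 (2.13-fold), Nnat (at least 5.59-fold) and Mest (at least 1.69-fold). The probe named Pparg, the master regulator of adipocytes, lay on every array at or under the floor to which low values were raised (5.66 to 6.66). The probe named Lpl, a target lipase of Pparg, read at most 104 on any array. Both were inside the background spread, so their genes gave no information.

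Other genes of brown fat did so less evenly. Of 18 listed, 15 were on the array. In the pair labelled uterus 3 of 7 past the level floor were higher by 2-fold or more and 2 lower. Over all genes past that floor, 12.9% were higher and 8.49% lower. The 3 higher, also given for being few, were Cox8b, a mitochondrial oxidase subunit of brown fat and striated muscle (10.1-fold), Dio2, which activates thyroid hormone (9.84-fold), and Acot2 (2.30-fold). Cox8b read 159, 185 and 3615 on the arrays labelled SHT brain, SHT ovary and SHT uterus, and 171, 769 and 363 on those labelled mock brain, mock ovary and mock uterus, so that it was brightest on the same pair of arrays as Ucp1. Plin5, a droplet protein of oxidative tissues, was lower by at least 6.42-fold, with 277 on the array labelled SHT uterus and 2068 on the array labelled mock uterus. Ppargc1a, a coactivator of mitochondrial genes, and Zic1, a transcription factor of brown fat and of brain, were brightest on the arrays with all neuron markers. Ppargc1a read 611 on the array labelled SHT ovary and 631 on the array labelled mock brain, and Zic1 3146 and 2976. In the pair labelled brain 2 of 7 genes were higher and 2 lower, near the 22.0% and 24.0% of all genes. In the pair labelled ovary 1 of 6 were higher and 3 lower, beside 25.4% and 21.2%. Prdm16 and Elovl3 were inside the background spread on all 6 arrays.

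**Figure D3:**
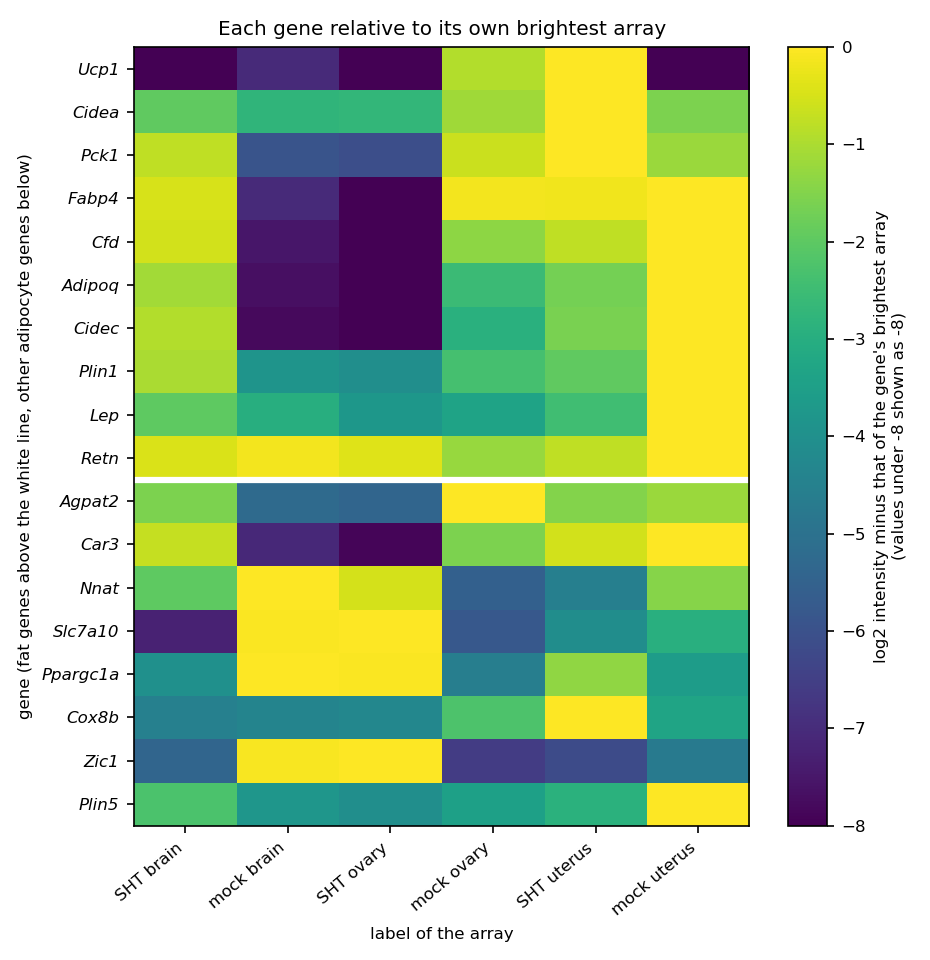
Log2 intensity of each gene minus that of its own brightest array, for the 10 fat genes and for 8 other adipocyte genes, the 4 with the widest range over the arrays from the white fat list and 4 from the brown fat list. Ucp1, Cidea and Pck1 are brightest on the array labelled SHT uterus, and Adipoq, Cfd, Cidec, Plin1 and Lep on the array labelled mock uterus. Nnat, Slc7a10, Ppargc1a and Zic1 are brightest on an array with all neuron markers.

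Markers of other cell types moved with the fat genes in places, and their part in these differences was not tested. Skeletal muscle markers (8 of 12 on the array) summed to 8703 on the array labelled SHT uterus and 686 on the array labelled mock uterus. There, 4 of 4 genes past the level floor were higher by 2-fold or more, beside 12.9% of all genes, among them Acta1, a muscle actin, by at least 8.71-fold. All 4 read under that floor on the array labelled mock uterus and passed it only through the SHT array, which fixed their direction. Pvalb of that list was instead brightest on the arrays with all neuron markers, at 1754 under SHT ovary and 1379 under mock brain. Ckm, the creatine kinase of muscle, read 26.3, 7.48 and 839 on the arrays labelled SHT brain, SHT ovary and SHT uterus, and 7.92, 202 and 24.3 on those labelled mock brain, mock ovary and mock uterus, so that it was brightest on the same pair of arrays as Ucp1 and Cox8b but above the background spread on the array labelled SHT uterus alone. Macrophage markers (9 of 10 on the array) summed to 30661, 20368 and 83075 on the arrays labelled SHT brain, SHT ovary and SHT uterus, and to 16602, 32742 and 30065 on those labelled mock brain, mock ovary and mock uterus. Endothelial markers (10 of 10) summed to 14093, 8373 and 19075 on the SHT arrays and to 8292, 11259 and 21715 on the mock arrays in the same order of tissues. Smooth muscle markers (6 of 8) summed to 50802, 2594 and 85795 on the SHT arrays and to 3407, 93229 and 52611 on the mock arrays, so that the 4 arrays bright in fat genes were also those bright in smooth muscle. Of 10 sebaceous gland genes 1 or 2, and of 7 mammary gland genes on the array 1, were above background on each array. The mammary gene was the milk protein Csn2, above background on all 6, from 355 under mock ovary to 801 under mock brain. Of the sebaceous list, Elovl5 was above it on all 6, from 13843 under mock brain to 34586 under mock uterus. Fa2h passed it at 719 under SHT ovary and 704 under mock brain, and Mogat2 at 406 under SHT brain. The other genes of both lists, among them Awat1, Awat2, Dgat2l6, Csn1s1, Csn3 and Wap, were inside the background spread on all 6.

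**Figure D4:**
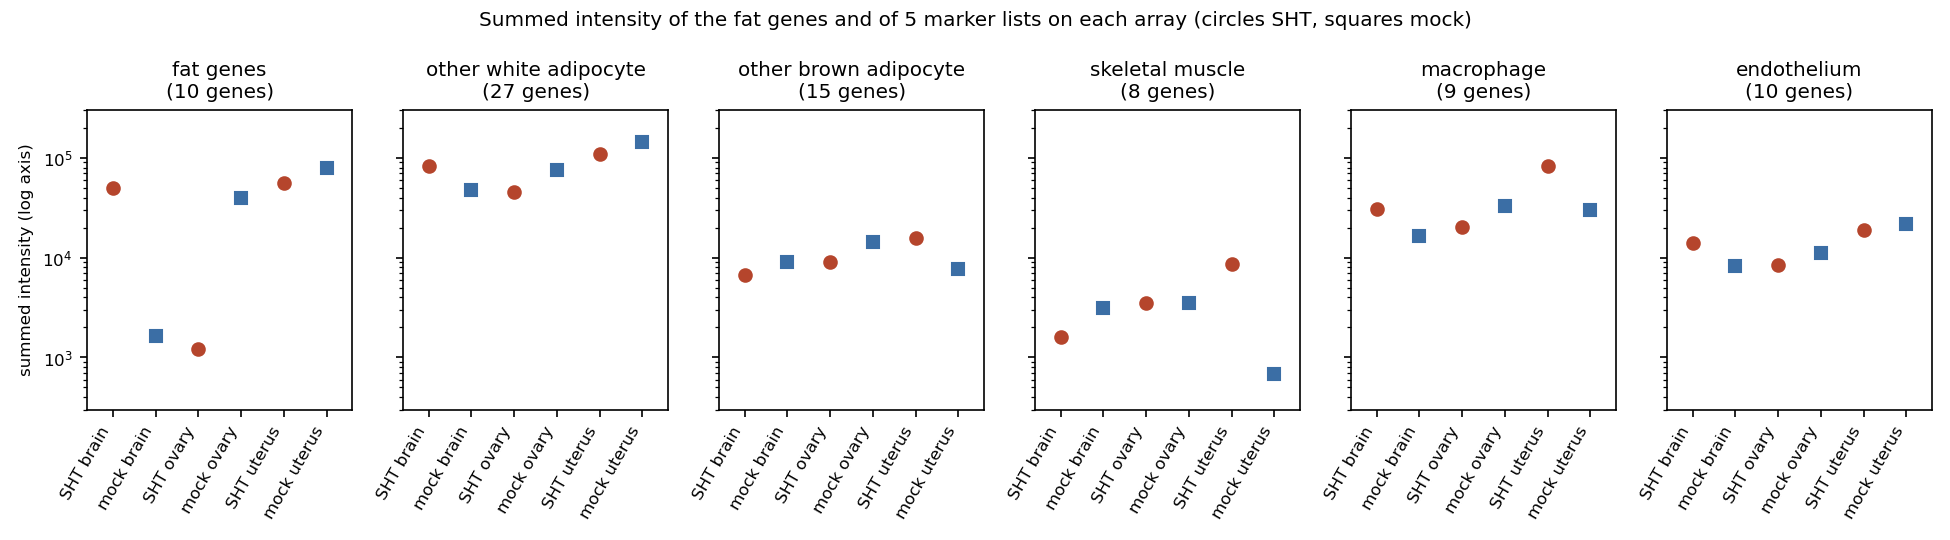
Summed intensity (log axis) of the 10 fat genes and of 5 marker lists on each array, circles for arrays labelled SHT and squares for arrays labelled mock. The fat genes sum to between 39310 and 80061 on 4 arrays and to 1226 and 1635 on the arrays labelled SHT ovary and mock brain, while the skeletal muscle markers are highest on the array labelled SHT uterus (8703) and lowest on the array labelled mock uterus (686).

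The genes whose pattern was most like the mean of the 10 (each centred on its own mean, log2 scale) were taken by Pearson correlation over the 6 arrays. Because the arrays fall into 4 with bright fat genes and 2 without, such a correlation mainly records that division, and 392 of 2901 eligible genes (13.5%) had r above 0.95. The 10 closest were Steap4, Fam114a1, Chaf1b, Tlcd2, Lgals12, Tln1, Hspg2, Itgb1, Pi4k2b and Apol10b, with r between 0.993 and 0.997. Steap4, a metalloreductase abundant in fat, read 1083, 15.8 and 3249.9 on the arrays labelled SHT brain, SHT ovary and SHT uterus, and 25.8, 1201 and 2106 on those labelled mock brain, mock ovary and mock uterus. Lgals12, a galectin of adipocyte lipid droplets, read 569, 106 and 1025 on the SHT arrays and 123, 714 and 866 on the mock arrays in the same order. Itgb1 and Tln1, an integrin subunit and its cytoplasmic partner, and Hspg2, a proteoglycan of basement membranes, are used by most non-neural tissues.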

How the data were processed

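Gene expression was measured in 6 samples, 1 array each. The deposited table holds linear intensity for 26423 probes, and how the authors scaled it, corrected background or filtered probes is not stated in the labels or headers, nor are detection flags. Per the submitters' processing notes limma was used, with no version or role given. Values below the 5th percentile of an array's positive intensities (5.66 to 6.66) were set to it before log2 was taken. Arrays, with medians of 179 to 224, were not rescaled. The number of arrays limits the precision. Each array had 20 to 30 probes without a positive value. Of the probes, 20377 carried 1 gene symbol, 0 several and 6046 none. Symbols were updated through RefSeq (18213 current, 2126 by synonym, 38 kept), giving 17742 genes, each by the brightest of its probes.

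Groups came from the labels alone. Each labelled pair was described without a test, and limma 3.58.1 (R 4.3.3) tested the SHT effect averaged over labelled tissues, two-sided, by lmFit and eBayes with trend, with Benjamini-Hochberg adjustment. The procedure was tested on simulated data, built from the mean of each labelled tissue with small added noise. The opposed directions of the real pairs were absent there, so it does not show how the fit performs on these arrays. Giving medians with genes at their bound, and the share of all genes with opposite calls, was decided after seeing the data. The 10 genes were given with the request, and these genes, the 15 marker lists and the tests were chosen with earlier results of these data known. Every fat gene is named. From a list up to 4 genes were named, those with the largest range among genes above background on some array, and others where the text says so or to give a low or background level, and these were chosen after their values were seen. Alternatives were quantile normalization, median centring, the mean of probes, a higher background floor, no level floor, a 3-fold threshold, and for limma a fit with no trend, one without the block and fits leaving out each labelled pair.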

Additional observations from a re-analysis of the deposited data

Results flagged for a closer look

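Of the 10 fat genes, 8 passed 2-fold upward in 1 labelled pair and downward in another, where 39.9% of all genes above the level floor in at least 2 pairs did so. Apart from Cidea and Plin1, each of the 8 passed that floor in at least 1 pair only through its brighter array, which fixed its direction there. The values here are the SHT minus mock log2 difference of the first pair named minus that of the second, each relative to its median gene. With 1 array per group the difference between pairs was not tested, and the arrays of these pairs carry markers of different tissues. The pair labelled brain minus the pair labelled ovary gave 16.29 for Fabp4, 16.11 for Cfd, 12.77 for Adipoq, 10.81 for Pck1 and 4.76 for Plin1. The pair labelled brain minus the pair labelled uterus gave 8.59 for Cidec, 8.32 for Adipoq and 4.90 for Plin1. The pair labelled ovary minus the pair labelled uterus gave -16.03 for Ucp1, -6.76 for Pck1 and -3.28 for Cidea. Apart from Cidea, each of these uses at least 1 intensity inside the background spread, so that its size is not a measure of the difference.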

How the results depend on the processing

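No paired analysis was possible because each group holds 1 array, so that no replicate numbers could pair samples beyond the labelled tissue, which the limma fit holds as its block. Without that block limma called 0 genes too. The number of fat genes at least 2-fold different was 6 in the pair labelled brain and between 6 and 8 under its alternatives, 7 in the pair labelled ovary (6 to 8) and 7 in the pair labelled uterus (5 to 8). With each array centred on the median of its probes, Cidea passed 2-fold in the pair labelled brain, and over all genes of that pair 2997 were higher and 2046 lower, against 2361 and 2575 as deposited. The number of gene and array values above the background spread was 33 of 60, also after quantile normalization and with the mean of probes. Neither setting could do much to this number. Quantile normalization keeps the order of genes within an array, from which the limit was taken again. The mean of probes leaves genes with 1 probe as they were. The limma fit of the average SHT effect called 0 genes under every alternative, with between 3 and 461 genes at an unadjusted p under 0.05, 461 of them without the pair labelled ovary. Of 120 differences of single fat genes recomputed, 0 changed the sign of a called difference. Under median centring and the mean of probes this was fixed in advance. Centring leaves a difference relative to the median gene as it was. Each fat gene has 1 probe, so the mean of probes moves only the median gene. Moves of over 1.5-fold came to 18, all from raising values to the upper edge of the background spread. They ran from 0.74 to 4.61 on the log2 scale, with a median of 2.01. Cidec in the pair labelled ovary moved most, to -1.08 from -5.69, followed by Ucp1 (-3.47 from -7.61) and Fabp4 (-5.51 from -9.61) in the same pair. The lack of detection flags limits what can be said of values inside the background spread.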

Other observations

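Adipoq and Ucp1 were brightest on different arrays, and the array labelled mock uterus held both the brightest Adipoq (18117) and an Ucp1 of 19.6, inside its background spread. Dio2, which activates thyroid hormone, read 2538, 2315 and 6607 on the arrays labelled SHT brain, SHT ovary and SHT uterus, and 2098, 9228 and 679 on those labelled mock brain, mock ovary and mock uterus. Otop1, a proton channel of brown fat, read 305, 20.6 and 119 on the arrays labelled SHT brain, SHT ovary and SHT uterus, and 24.3, 52.7 and 18.9 on those labelled mock brain, mock ovary and mock uterus. It thus stood above the background spread on the array labelled SHT brain alone, where it was close to the limit of 275 and Ucp1 read 15.3. Lipe, the hormone-sensitive lipase of fat and of steroid-producing cells, ran against the set, with 181, 3354 and 458 on the SHT arrays and 3108, 342 and 231 on the mock arrays in the same order. Whether its probe measures that gene is not known here. Gpd1 and Aqp7 of the white fat list are given because they shared its direction in the pairs labelled brain and ovary. Gpd1 was 2.05-fold lower in the pair labelled brain and 1.91-fold higher in the pair labelled ovary. For Aqp7 these were at least 2.32-fold and at least 1.95-fold. Plin4, Cebpa, Agpat2 and Car3 of that list went with the set in both pairs.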
